A study of Rattus norvegicus with 10 samples.

Results

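CD-numbered genes were followed in whole mammary glands of young female rats fed casein or soy protein. CD numbers name surface proteins that antibodies recognise on blood and immune cells, though many of these proteins are made by other cells as well. The members were the genes whose single symbol in the array's annotation is Cd followed by digits and optional letters or digits, without Cd36 and Cd74. They came to 48 of the 10411 genes named by a single-gene probe set, and each gene was read at its brightest probe set. Of these 48, 39 had a mean log2 signal over all 10 arrays of at least 7.47, the 40th percentile of all probe sets, and were tested for diet. The other 9 (Cd2, Cd28, Cd40lg, Cd46, Cd52, Cd80, Cd86, Cd200r1 and Cd244l1) lay below it. One tested member, Cd2bp2, is matched by its spelling alone and is a splicing protein rather than a surface antigen.

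The glands came from SD rats at postnatal day 21. All rats received the purified AIN-93G diet, whose protein was either casein (arrays CAS 6, 7, 10, 18 and 20) or soy protein isolate (SPI 147, 149, 155, 157 and 159), from gestation day 4 to weaning. Biotin-labelled cRNA of each sample was hybridised to 1 array, and values are log2 of the MAS5 signal. The labels mention pools of RNA, so an array may not be 1 animal, and each p-value rests on a spread between arrays that can be technical in part. Per-array values follow the order CAS 10, 18, 20, 7 and 6, then SPI 147, 155, 157, 159 and 149, so that CAS 6 and SPI 149 stand last in their diets.

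A rat mammary fat pad encloses lymph nodes, which are packed with T and B lymphocytes and can be included in or left out of a dissected gland. T cells recognise antigen through a receptor whose signals are carried by the Cd3 chains and Cd247, with the coreceptors Cd4 and Cd8 binding the presenting molecule. B cells signal through an antibody receptor that needs Cd79b. Other CD proteins, such as the tetraspanins Cd9, Cd63, Cd81 and Cd151, sit in the membranes of most cells and organise partner proteins there.

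A lymph node signal free of any gene whose symbol is Cd and digits was taken as the mean of 14 genes of B cells, T cells and lymph node stroma. It was 7.83 in CAS 6 and 7.86 in SPI 149, against 9.36 to 9.79 in the other 8 arrays. Its soy minus casein difference of 0.08 did not pass a test (exact permutation test, two-sided p = 0.66). Its direction rested on single arrays, and turned to -0.26 without CAS 6, -0.04 without SPI 155 and -0.06 without SPI 157. It stayed positive without any other single array, up to 0.42 without SPI 149. Skeletal muscle markers (7 tested of 10 listed) were high in CAS 6 and SPI 149, at means of 13.66 and 13.51. They were also high in SPI 147 and SPI 157, at 12.54 and 13.96, against 6.51 to 8.35 in the rest. Mast cell markers (5 tested of 6) were at 9.83 and 9.60 in the pair CAS 6 and SPI 149. The others read 8.73 to 9.74, with 2 of the 5 markers above all others in both arrays of the pair. The mean of the neutrophil and blood markers (3 tested of 5) was lowest in the pair, at 9.79 and 9.30 against 10.21 to 11.05. Of these genes only S100a9 was low in both arrays, at 6.17 and 3.79 against 7.30 to 9.80. Hbb, at 13.18 and 13.82 against 13.05 to 13.61, and Alas2, at 10.02 and 10.29 against 9.77 to 10.63, were not. The part of these cell types in the members' values was not tested. Luminal epithelial markers (5 tested of 8) ran from 6.39 in CAS 6 to 10.77 in CAS 7 with casein and from 6.42 in SPI 159 to 9.82 in SPI 147 with soy. Krt18, a luminal keratin, was at 4.49 in CAS 6, and Epcam, an epithelial adhesion protein, at 4.53 in SPI 159. Adipocyte markers (5 tested of 7) lay between 11.31 and 11.66 with casein and reached 12.13 in SPI 149. The ratio of actin 3' to 5' signal, a sign of RNA integrity, was 0.41 in CAS 6 and 0.50 in SPI 149 on the log2 scale, within the 0.29 to 0.65 of the others.

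The members ranged from antigens far lower in CAS 6 and SPI 149 to antigens at or above the level of the other arrays, with no break between them. In 16 of the 39 tested members (41.0%) both CAS 6 and SPI 149 lay below each of the other 8 arrays, against 15.8% of all 9520 probe sets tested. The distance between the lowest of the 8 arrays and the higher of this pair is called the gap here. A gap of at least 1 on the log2 scale was found in 8 members (20.5%), against 1.12% of all probe sets, and one of at least 2 in 7 (17.9%), against 0.326%. These 7 members were among 31 such probe sets in the whole table, 25 of which name a single gene. Since CAS 6 and SPI 149 were picked for their lymph node signal, these counts describe the members and carry no test. In whole tissue, fewer cells of a type and less RNA per cell cannot be told apart. All 3 B cell antigens and all 8 T and NK cell antigens that were tested had a positive gap, with medians of 0.72 and 2.55. Of the 3 antigens of most leukocytes 2 did, of the 7 myeloid and dendritic antigens 1, of the 11 antigens of many cell types 1, and of the 6 stem cell, endothelial and stromal antigens 0. Just inside the limit lay Cd4, with a gap of 0.03, and just outside it Cd200, with -0.02.

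**Figure D1:**
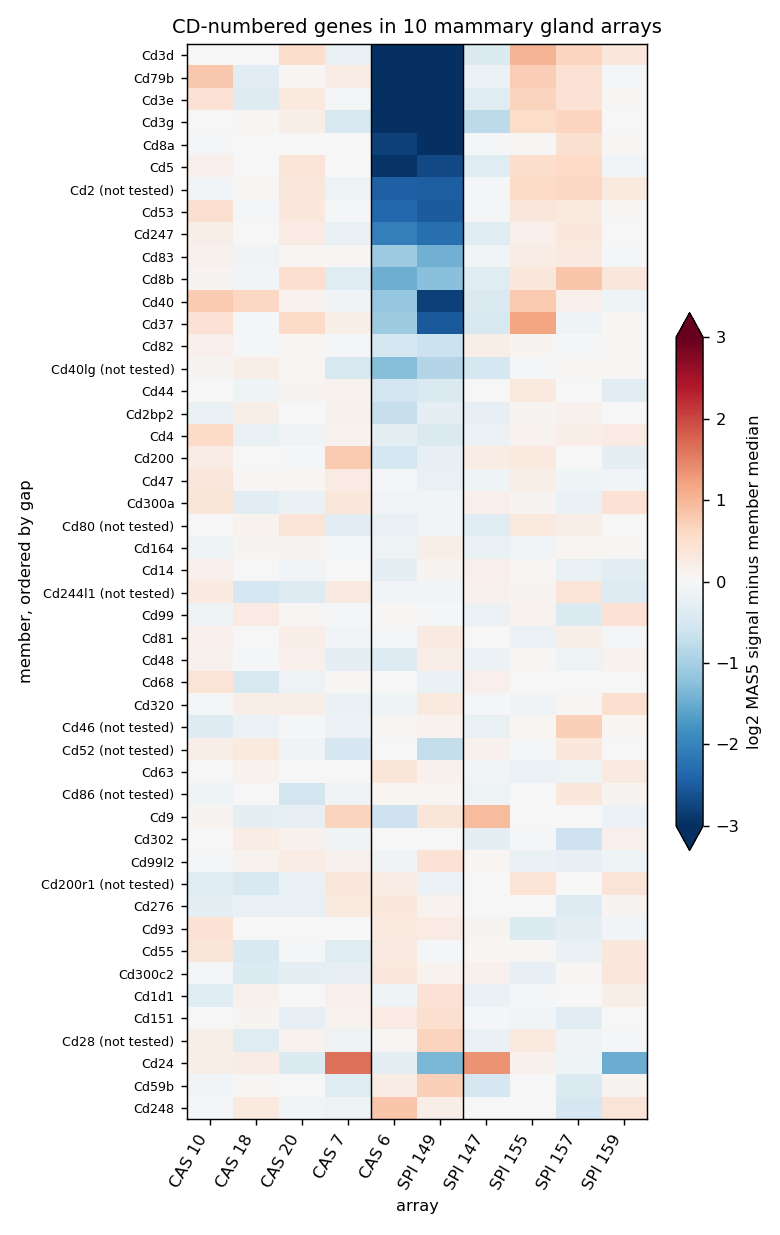
Log2 MAS5 signal of all 48 members (rows) in 10 arrays (columns), minus each member's median over the arrays and ordered by gap, with the colour scale ending at -3 and 3. Lines enclose CAS 6 and SPI 149, where Cd3d to Cd247 stand far below their medians, while most rows from Cd47 down vary little.

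**Figure D2:**
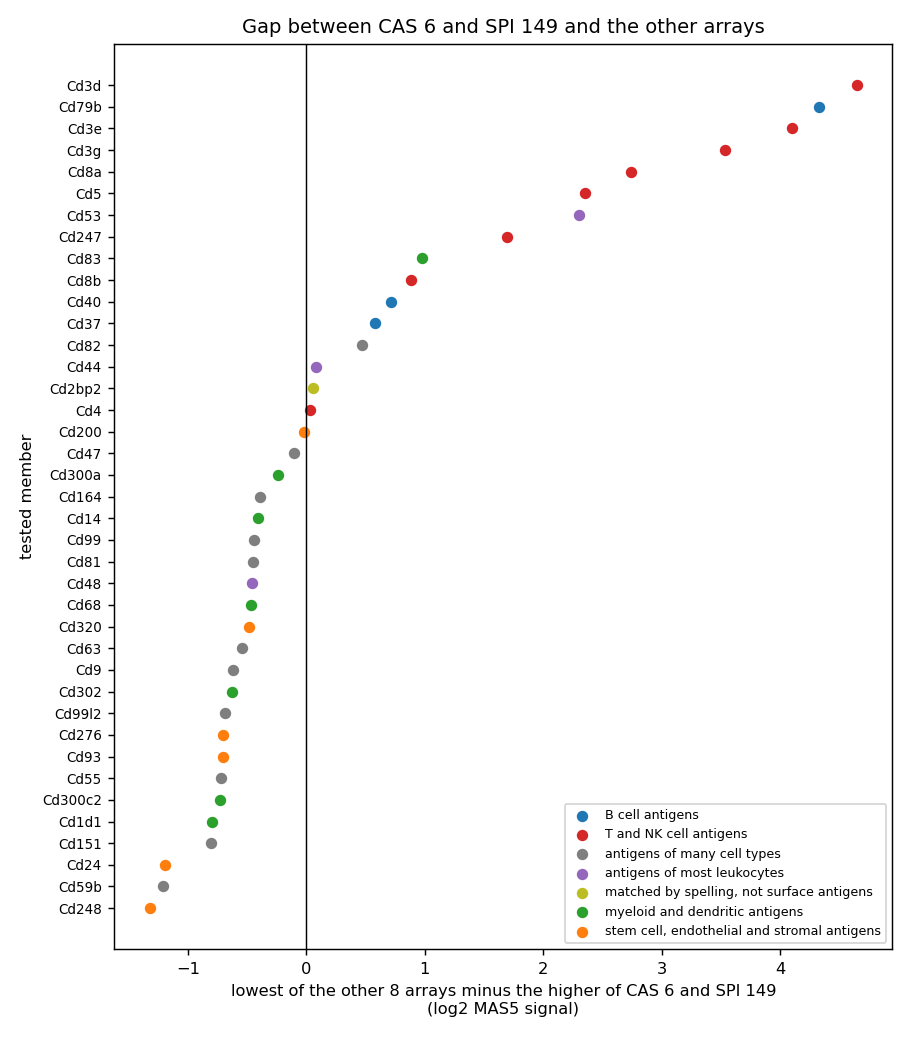
Gap of each of the 39 tested members, the lowest log2 signal among the other 8 arrays minus the higher of CAS 6 and SPI 149, coloured by role. Positive values mean that both arrays lay below all others, and the T and B cell antigens hold the upper end, from 4.65 for Cd3d downwards.

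The signalling chains of the T cell receptor had some of the widest gaps. Cd3d had casein values of 10.11, 10.08, 10.62, 9.87 and 4.96 and soy values of 9.68, 11.12, 10.73, 10.40 and 5.03. With casein Cd3e read 9.03, 8.20, 8.89, 8.56 and 3.67, and with soy 8.23, 9.25, 9.02, 8.63 and 4.10. For Cd3g the casein arrays read 10.92, 11.01, 11.14, 10.47 and 6.63 and the soy arrays 10.17, 11.50, 11.59, 10.97 and 6.18. In each of these 3 genes CAS 6 and SPI 149 lay at similar depths and far from the rest, with gaps of 4.65, 4.10 and 3.54, so that the next lowest array was 25.1-fold, 17.2-fold and 11.6-fold higher in signal. Cd247 had casein values of 9.60, 9.42, 9.67, 9.21 and 7.37 and soy values of 9.07, 9.57, 9.74, 9.44 and 7.16. Cd247, the zeta chain, thus stood apart by less, with a gap of 1.70, and its dimmer probe set had one of 1.35. No signal was set against background, so the depth of values as low as 3.67 and the folds built on them are not exact. SPI 147 was the lowest of the other 8 arrays in 6 of the 8 members with a gap of at least 1, and SPI 157 the highest in 4. SPI 147 and SPI 157 had high muscle marker signals as well. They read 9.68 and 10.73 for Cd3d, against 9.87 to 11.12 in the arrays with little muscle signal. The part of muscle content in these values was not tested.

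The sequence before the start of these genes is shown because the 4 receptor chains, and the leukocyte tetraspanins Cd37 and Cd53, shared the low values in CAS 6 and SPI 149, whereas Cd48, another leukocyte antigen, did not. Promoter entries were found for 37 of the 48 members in RefSeq (GRCr8), and the 250 bases before the annotated start are printed 5′ to 3′ on the gene's strand. Capitals mark AGGAAG or its reverse complement CTTCCT, called the core here, a longer form of the GGAA that ETS family transcription factors bind. Other matches to GGAA were neither marked nor counted. The motif was chosen after the sequences were seen.
Cd3d: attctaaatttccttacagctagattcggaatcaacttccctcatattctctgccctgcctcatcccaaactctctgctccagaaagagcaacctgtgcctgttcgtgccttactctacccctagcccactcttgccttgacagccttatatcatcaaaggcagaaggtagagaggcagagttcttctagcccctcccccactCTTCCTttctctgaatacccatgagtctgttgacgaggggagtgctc
Cd3e: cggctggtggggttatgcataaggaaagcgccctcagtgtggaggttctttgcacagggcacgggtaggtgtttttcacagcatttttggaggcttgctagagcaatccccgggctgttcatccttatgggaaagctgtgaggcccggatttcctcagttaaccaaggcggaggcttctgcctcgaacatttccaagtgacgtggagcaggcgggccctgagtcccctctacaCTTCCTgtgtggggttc
Cd3g: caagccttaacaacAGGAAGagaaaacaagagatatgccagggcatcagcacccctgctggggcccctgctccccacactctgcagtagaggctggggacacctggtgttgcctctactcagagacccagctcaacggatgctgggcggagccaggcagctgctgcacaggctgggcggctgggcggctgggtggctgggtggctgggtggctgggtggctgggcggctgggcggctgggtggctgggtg
Cd247: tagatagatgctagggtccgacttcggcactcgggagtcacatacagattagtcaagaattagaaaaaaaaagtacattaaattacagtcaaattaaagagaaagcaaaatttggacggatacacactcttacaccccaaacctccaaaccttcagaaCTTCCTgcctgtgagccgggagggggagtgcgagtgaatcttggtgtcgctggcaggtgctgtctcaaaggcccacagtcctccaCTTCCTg
Cd37: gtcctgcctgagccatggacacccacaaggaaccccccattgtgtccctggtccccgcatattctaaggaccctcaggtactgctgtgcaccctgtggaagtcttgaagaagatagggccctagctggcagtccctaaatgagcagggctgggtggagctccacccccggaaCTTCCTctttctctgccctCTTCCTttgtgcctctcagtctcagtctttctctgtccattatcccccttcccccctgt
Cd53: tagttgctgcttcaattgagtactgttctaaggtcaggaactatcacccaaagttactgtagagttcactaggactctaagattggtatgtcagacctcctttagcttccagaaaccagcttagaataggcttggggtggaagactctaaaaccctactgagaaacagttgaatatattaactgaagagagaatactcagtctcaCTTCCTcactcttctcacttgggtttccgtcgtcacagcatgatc
Cd48: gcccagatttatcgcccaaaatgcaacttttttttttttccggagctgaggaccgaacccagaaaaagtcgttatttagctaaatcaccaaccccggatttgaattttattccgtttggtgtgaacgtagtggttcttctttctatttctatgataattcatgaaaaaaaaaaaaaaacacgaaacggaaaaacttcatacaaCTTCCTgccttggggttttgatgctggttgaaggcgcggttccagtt
These stretches lie at chr8:54185269-54185518 (+ strand) for Cd3d, chr8:54211771-54212020 (- strand) for Cd3e, chr8:54183919-54184168 (- strand) for Cd3g and chr13:80576019-80576268 (+ strand) for Cd247. Those of Cd37, Cd53 and Cd48 lie at chr1:104860785-104861034 (- strand), chr2:197087897-197088146 (- strand) and chr13:86717744-86717993 (+ strand). Cd3d and Cd3g start 1601 bases apart and are read in opposite directions. The core nearest the start ended 2 bases before that of Cd247, 12 before that of Cd3e, 40 before that of Cd53, 42 before that of Cd3d and 54 before that of Cd37, but 231 before that of Cd3g. Cd48 held it too, 42 bases before its start. Over both strands, 8 of the 11 tested members low in both arrays that had an entry held the core, as did 8 of the 19 others, against 29.5% of all 33469 promoters of this length. Neither the octamer ATGCAAAT, held by 1.56% of all promoters, nor the TATA box TATAAA, held by 12.9%, occurred on either strand in any of these 30 members. Such matches describe the letters and are not binding sites.

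Coreceptors and other T cell antigens followed to very different extents. With casein Cd8a read 8.44, 8.48, 8.48, 8.49 and 5.69, and with soy 8.43, 8.52, 8.94, 8.53 and 4.35. The other 8 arrays of Cd8a, a chain of the coreceptor of cytotoxic T cells, spanned only 0.51, and its gap was 2.75. Cd8b had casein values of 7.74, 7.59, 8.16, 7.31 and 6.20 and soy values of 7.30, 7.97, 8.50, 8.01 and 6.42. For its partner chain Cd8b the gap was 0.88. Cd4, the coreceptor of helper T cells, which rat macrophages also carry, read 8.61 in CAS 6 and 8.42 in SPI 149 against 8.63 to 9.45, a gap of only 0.03. For Cd5 the casein arrays read 9.48, 9.35, 9.72, 9.31 and 6.38 and the soy arrays 8.98, 9.87, 9.93, 9.24 and 6.63. Cd5, a brake on T cell receptor signalling, had a gap of 2.35. Cd2, an adhesion receptor of T and NK cells, was not tested because its mean was 7.05, but it read 4.94 in CAS 6 and 4.90 in SPI 149 against 7.24 to 8.01. The helper T cell ligand Cd40lg, also untested, read 5.82 in CAS 6 and 6.20 in SPI 149 against 6.57 to 7.28. The costimulatory receptor Cd28 ran from 5.79 to 6.82 over all 10 arrays, with SPI 149 the highest. Cd244l1, a relative of an NK cell receptor, showed no gap at its brighter probe set (-0.43) and one of 0.72 at the other, both below the limit for testing.

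B cell antigens were low in both arrays, but not equally so in each. Cd79b had casein values of 9.78, 8.65, 9.03, 9.20 and 3.41 and soy values of 8.82, 9.73, 9.42, 8.95 and 4.32. Cd79b, the signalling chain of the B cell receptor, had a gap of 4.32, and CAS 6 was its lowest array. With casein Cd37 read 9.93, 9.46, 10.08, 9.67 and 8.43, and with soy 9.01, 10.69, 9.36, 9.54 and 6.98. In Cd37, a tetraspanin of mature B cells and other leukocytes, SPI 149 was far lower than CAS 6, and the next lowest array was SPI 147, which left a gap of 0.58. Cd40, the receptor through which helper T cells activate B cells and dendritic cells, showed the same order, with 6.88 in CAS 6 and 5.25 in SPI 149 against 7.59 to 8.81. Over the 16 members low in both arrays, SPI 149 was the lowest array in 9 and CAS 6 in 7.

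Antigens shared by most leukocytes did not behave as a block. For Cd53 the casein arrays read 11.25, 10.72, 11.08, 10.72 and 8.41 and the soy arrays 10.71, 11.10, 11.05, 10.79 and 8.26. Cd53, a tetraspanin of leukocytes, had a gap of 2.30, while the other 8 arrays spanned 0.54. Cd48 had casein values of 11.71, 11.54, 11.71, 11.30 and 11.19 and soy values of 11.40, 11.59, 11.42, 11.67 and 11.76. Cd48, a partner of Cd2 on leukocytes, was highest in SPI 149 and lowest in CAS 6 and varied little. Cd44, the hyaluronan receptor, read 8.57 in CAS 6 and 8.71 in SPI 149 against 8.79 to 9.43, a gap of 0.08 at its brighter probe set and of -0.32 at its dimmer one. Cd52, a small leukocyte glycoprotein, was dim throughout, at 5.38 in SPI 149, 6.11 in CAS 6 and 5.58 to 6.40 in the others. Cd82, a tetraspanin of many cells, had a small gap of 0.47 over a tight range of 9.56 to 9.79 in the other 8 arrays.

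**Figure D3:**
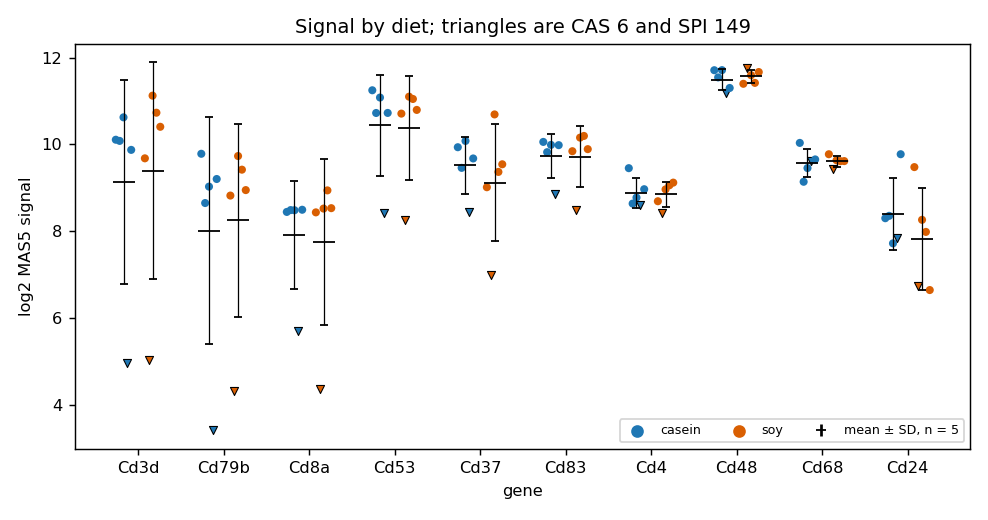
Log2 MAS5 signal of 10 members by diet, 1 point per array, with bars for mean ± SD (n = 5) and triangles for CAS 6 and SPI 149. The triangles lie far under the other points for Cd3d, Cd79b, Cd8a and Cd53, less so for Cd37 and Cd83, while for Cd48 and Cd68 they lie at or near the other points.

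Myeloid and dendritic antigens mostly stayed level across the arrays. With casein Cd83 read 10.06, 9.82, 9.99, 9.98 and 8.85, and with soy 9.84, 10.15, 10.19, 9.89 and 8.49. Cd83, a marker of mature dendritic cells that activated lymphocytes also make, was the exception among the 7 tested, with a gap of 0.97. Cd14 had casein values of 10.80, 10.66, 10.56, 10.62 and 10.34 and soy values of 10.80, 10.71, 10.42, 10.31 and 10.72. In Cd14, the lipopolysaccharide coreceptor of monocytes and macrophages, CAS 6 and SPI 149 lay within the range of the others. The lysosomal macrophage protein Cd68 read 9.61 in CAS 6 and 9.42 in SPI 149 against 9.14 to 10.03, and the inhibitory receptor Cd300a 7.59 in CAS 6 and 7.58 in SPI 149 against 7.36 to 8.10. For Cd300c2 the casein arrays read 8.92, 8.52, 8.65, 8.70 and 9.25 and the soy arrays 9.06, 8.69, 8.97, 9.28 and 9.05. Cd300c2, a relative of Cd300a, was thus high rather than low in both arrays, within the reach of SPI 147 and SPI 159. With casein Cd302 read 9.89, 10.12, 10.04, 9.80 and 9.92, and with soy 9.64, 9.87, 9.29, 10.06 and 9.91. The lectin Cd302 was lowest in SPI 157. The lipid-presenting molecule Cd1d1 read 7.59 in CAS 6 and 8.16 in SPI 149 against 7.35 to 7.89. The untested costimulatory ligands Cd80 and Cd86 ran from 2.87 to 3.61 and from 6.35 to 7.21 over the 10 arrays. Cd200r1, an inhibitory receptor of myeloid cells, also untested, ran from 5.82 to 6.69.

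The members named for stem, endothelial and stromal cells varied in other patterns. Cd24 had casein values of 8.30, 8.35, 7.72, 9.77 and 7.83 and soy values of 9.48, 8.26, 7.98, 6.64 and 6.74. Cd24, a small glycoprotein of epithelial cells and immature lymphocytes, was highest in CAS 7 and SPI 147, the arrays with the highest luminal marker means of their diets (10.77 and 9.82). It was lowest in SPI 159 and SPI 149, where the luminal mean was 6.42 and 7.45, but not in CAS 6, where that mean was 6.39. The part of epithelial content in this was not tested. With casein Cd9 read 10.22, 9.86, 9.88, 10.80 and 9.52, and with soy 11.07, 10.15, 10.11, 9.96 and 10.49. Cd9, a tetraspanin of epithelial and many other cells, was also highest in SPI 147 and CAS 7 and lowest in CAS 6. For Cd248 the casein arrays read 11.30, 11.65, 11.26, 11.21 and 12.18 and the soy arrays 11.37, 11.33, 10.85, 11.73 and 11.54. Cd248, a marker of pericytes and fibroblasts, was highest in CAS 6, and its dimmer probe set, with a mean of 4.98, was highest in SPI 159. Cd93 had casein values of 7.89, 7.47, 7.44, 7.44 and 7.76 and soy values of 7.54, 7.05, 7.17, 7.36 and 7.71. For Cd93, of endothelial and myeloid cells, the probe sets differed in sign between the diets, with soy minus casein values of -0.23 and 0.16. Cd200, the ligand of Cd200r1, was highest in CAS 7, at 10.06, and read 8.73 in CAS 6 and 9.03 in SPI 149. Cd276, an immune checkpoint ligand, spanned 8.49 to 9.19 over all arrays and Cd320, the receptor for cobalamin-loaded transcobalamin, 9.49 to 10.17.

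Antigens of many cell types mostly differed little between arrays. With casein Cd63 read 12.47, 12.59, 12.48, 12.48 and 12.84, and with soy 12.39, 12.30, 12.33, 12.76 and 12.61. Cd63, a tetraspanin of late endosomes, was highest in CAS 6. The tetraspanin Cd81 ranged from 12.05 to 12.50 and Cd164, a sialomucin, from 12.15 to 12.55 over all arrays. In 2 members both CAS 6 and SPI 149 lay above all other arrays, a share of 5.13% against 6% of all probe sets. They were the tetraspanin Cd151, at 11.87 in CAS 6 and 12.10 in SPI 149 against 11.30 to 11.72, and the complement inhibitor Cd59b, at 10.73 in CAS 6 and 11.22 in SPI 149 against 10.02 to 10.60. Of the other complement regulators, Cd55 read 8.88 in CAS 6 and 8.59 in SPI 149 against 8.16 to 8.97, and Cd46, untested, 6.99 in CAS 6 and 7.07 in SPI 149 against 6.57 to 7.67. For Cd47 the casein arrays read 10.84, 10.54, 10.56, 10.76 and 10.47 and the soy arrays 10.37, 10.68, 10.38, 10.43 and 10.28. Cd47, the surface signal that restrains engulfment by macrophages, lay lowest in SPI 149, with a gap of -0.10. The adhesion protein Cd99 ranged from 10.42 to 11.25 and its relative Cd99l2 from 8.08 to 8.77. Cd2bp2 had casein values of 9.94, 10.31, 10.16, 10.28 and 9.44 and soy values of 9.90, 10.21, 10.26, 10.11 and 9.85. Cd2bp2, the splicing protein, had a gap of 0.05, a size that many probe sets of this table shared.

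Over the 23 tested members without a gap, the median span of the other 8 arrays was 0.69, and it was 0.80 when CAS 6 and SPI 149 were added. Over the 8 members with a gap of at least 1 these medians were 1.0 and 5.0. The members were grouped by the gap, so a wider span with the pair follows from the grouping.

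Genes that work with the members but whose symbols are not spelled Cd and digits are given as a description. The proteins of some of them, such as Ptprc, do carry a CD number. The 14 tested T cell, B cell and lymph node stroma genes make up the lymph node signal by which CAS 6 and SPI 149 were known, so their gaps there are no independent support. Of the T cell partners, 5 of 8 tested had a gap of at least 1. They were Lef1 (5.60) and Tcf7 (3.17), transcription factors of T cells, Lck (2.37), the kinase that starts T cell receptor signalling, Il2rg (1.70), a shared cytokine receptor chain, and Lat (1.61), the adaptor downstream of the receptor. Prkcq (-0.03), a kinase of T cells and muscle, Gzmk (-0.38) and Thy1 (-0.94) had none. All 10 tested leukocyte partners had a positive gap, and in 5 it was at least 1. Coro1a, an actin regulator of leukocytes, had a gap of 3.14 and Ptprc, the leukocyte phosphatase CD45, one of 2.28. Of the lymph node stroma genes, Glycam1, a ligand of high endothelial venules, had a gap of 3.37, while Cxcl13 and Madcam1 had -0.20 and -0.80. Of 3 tested B cell partners 2 had a positive gap, Ly86 (0.66) and Syk (0.14), while Cxcr5 (-0.19) had none. Of 11 tested myeloid partners 3 had one, with 0.94 for Lyz2, 0.16 for Tyrobp and 0.06 for Ctss. Macrophage genes such as Csf1r and C1qb had gaps of -0.63 and -1.46. None of the 6 tested endothelial genes had a positive gap. In soy against casein, none of the tested partners passed limma, with 5 of 8 T cell, 3 of 3 B cell, 2 of 3 lymph node stroma, 4 of 10 leukocyte and 9 of 11 myeloid partners higher in soy. At an unadjusted p under 0.05 in limma there were 1 of 8 T cell and 1 of 11 myeloid partners and none of the other tested partners, against 4.55% of all probe sets.

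**Figure D4:**
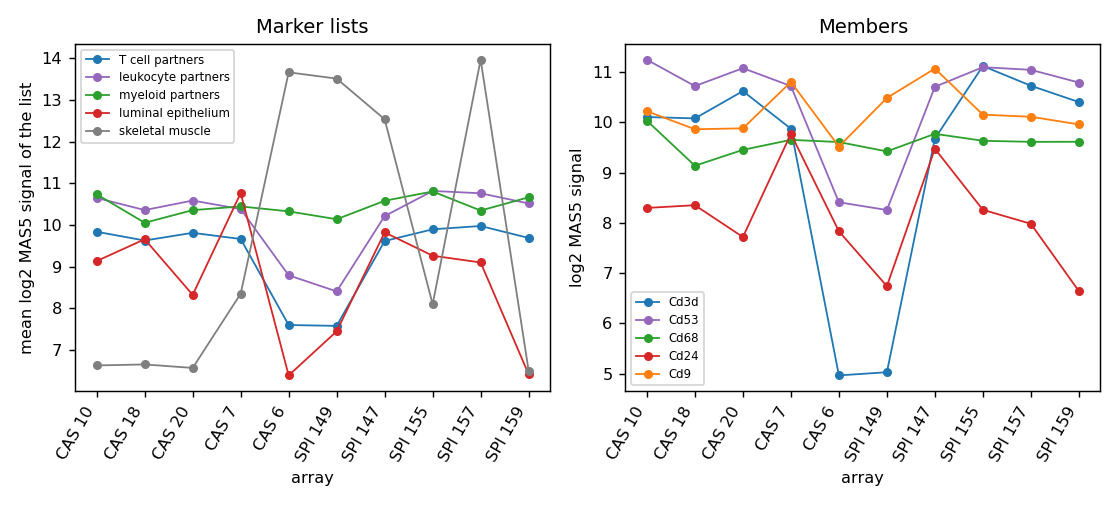
Mean log2 MAS5 signal of 5 marker lists (left) and log2 signal of 5 members (right) in each array, where lines join arrays only to guide the eye. Cd3d and Cd53 drop in CAS 6 and SPI 149 as the T cell and leukocyte lists do, Cd68 stays level like the myeloid list, and Cd24 is highest in CAS 7 and SPI 147.

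No member passed the test of soy against casein. In limma, with p adjusted by Benjamini-Hochberg across the 9520 probe sets, 0 of the 39 tested members had an adjusted p under 0.05 (0% of all probe sets), and the adjusted p ran from 0.98 to 0.9995. At an unadjusted p under 0.05 there were also 0 members, against 4.55% of all probe sets (2.31% higher and 2.24% lower in soy). The diets overlapped in every tested member, whereas they did not in 0.798% of all probe sets. The median soy minus casein difference was -0.0029 over the members and -0.0103 over all probe sets, with 19 members higher and 20 lower in soy.

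For the members that followed the lymph node signal, the spread within each diet was wide. Cd3d averaged 9.13 ± 2.34 (SD, n = 5) with casein and 9.39 ± 2.50 (SD, n = 5) with soy, a difference of 0.26 ± 1.27 (SE). Cd79b averaged 8.01 ± 2.61 (SD, n = 5) with casein and 8.25 ± 2.22 (SD, n = 5) with soy, a difference of 0.23 ± 1.28 (SE). Among the 8 members with a gap of at least 1 the standard error ran from 0.53 to 1.28, with a median of 0.98. The median was 0.15 over the 23 members without a gap, a contrast that follows from grouping by the gap. Each diet held 1 of the low arrays, and the differences of these 8 members lay between -0.16 and 0.26. They rested on single arrays, and stood for Cd3d at -0.78 without CAS 6 and 1.35 without SPI 149, and for Cd79b at -0.92 and 1.22. Without SPI 155 or SPI 157 they were at -0.17 and -0.07 for Cd3d and at -0.14 and -0.06 for Cd79b, and Cd3e, Cd3g and Cd5 also turned negative without either array. Cd37, at -0.40 ± 0.56 (SE), was at 0.14 without SPI 149, and Cd40 was at -0.54 ± 0.59 (SE).

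Without both CAS 6 and SPI 149 the standard errors of those 8 members fell to between 0.13 and 0.28 (median 0.22). This fall follows from their choice by the gap. Of the 8, 6 were higher and 2 lower in soy. The values were 0.31 ± 0.27 (SE, n = 4 per diet) for Cd3d, 0.17 ± 0.28 for Cd3g, 0.13 ± 0.13 for Cd8a, 0.12 ± 0.24 for Cd3e and 0.06 ± 0.25 for Cd79b. They were 0.04 ± 0.21 for Cd5, -0.02 ± 0.16 for Cd247 and -0.03 ± 0.14 for Cd53. In these 8 arrays Cd37 was at -0.13 ± 0.30 and Cd40 at -0.26 ± 0.27. Filtering anew on these 8 arrays admitted Cd2 (0.33 ± 0.19) and dropped Cd93. In limma, 0 of the 38 members tested both ways passed (0% of all probe sets), and 0 had an unadjusted p under 0.05 (7.21% of all). The diets did not overlap in 0 members, against 3.86% of all probe sets, and the smallest adjusted p among them was 0.67.

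The smallest p of the diet comparison belonged to members outside the lymph node pattern. Cd47 averaged 10.63 ± 0.16 (SD, n = 5) with casein and 10.43 ± 0.15 (SD, n = 5) with soy, a difference of -0.21 ± 0.10 (SE) with a p of 0.075 in limma (adjusted p = 0.98), and its other probe set gave -0.23. Its lowest casein value, 10.47 in CAS 6, lay within the soy range of 10.28 to 10.68. Next came Cd302 at -0.20 ± 0.14 (SE), which was at -0.09 without SPI 157, and Cd93 at -0.23 ± 0.17 (SE), which was at -0.15 without SPI 155. Cd300c2 was at 0.20 ± 0.15 (SE), and at 0.31 without CAS 6. Each of these had an adjusted p of 0.98 in limma. Cd9 was at 0.30 ± 0.25 (SE), and at 0.12 without SPI 147. Cd24, at -0.57 ± 0.54 (SE), was at -0.23 without CAS 7 and -0.99 without SPI 147, the arrays with the highest luminal marker means. For Cd63, Cd48, Cd14 and Cd248 the differences were -0.09 ± 0.12 (SE), 0.08 ± 0.12 (SE), -0.00 ± 0.12 (SE) and -0.15 ± 0.20 (SE). Such standard errors leave small differences between the diets unresolved.

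**Figure D5:**
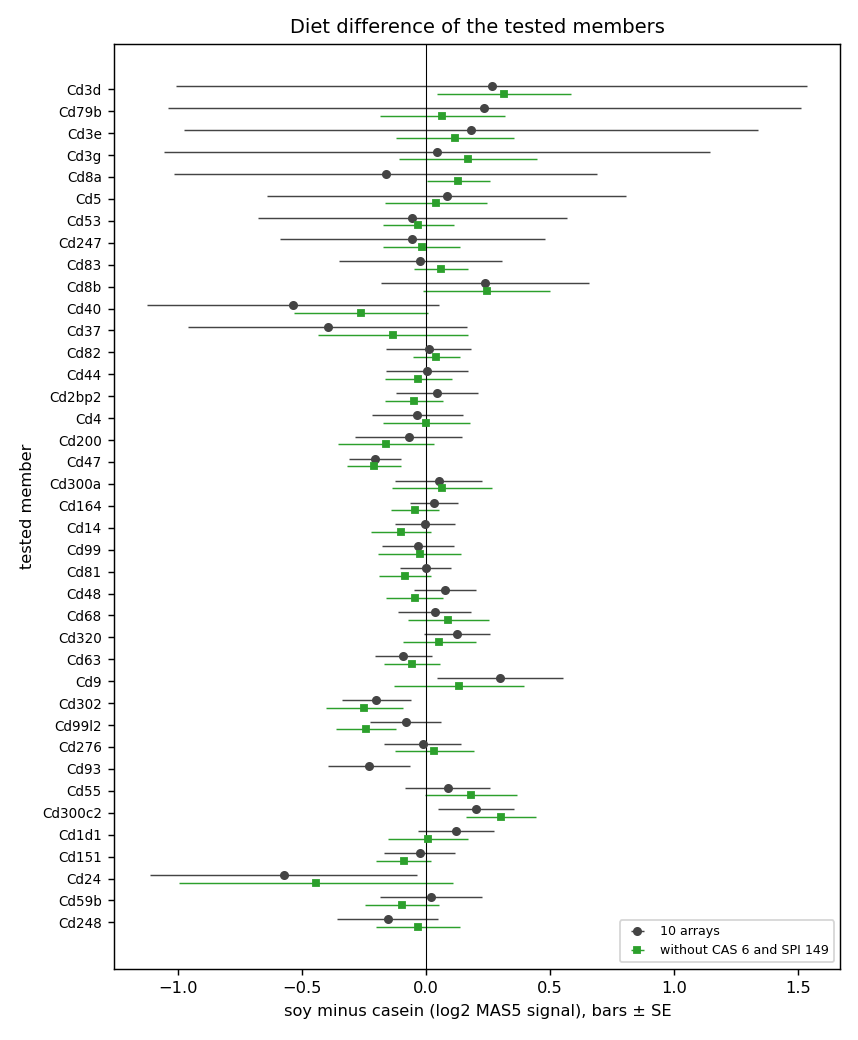
Soy minus casein difference in log2 MAS5 signal of the 39 tested members with bars of ± SE from limma, for 10 arrays (circles) and without CAS 6 and SPI 149 (squares), in order of gap. The bars of the members at the top are wide with all arrays and narrow without that pair, and Cd93 has no square because it lay below the filter there.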

How the data were processed

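Biotin-labelled cRNA from total RNA of 5 casein and 5 soy samples was hybridised to 1-colour arrays, per the labels' protocols. The deposited intensity values are linear MAS5 signals that the authors computed, per the submitters' processing notes. The version and settings of MAS5 were not given in the sources used here. The 2% trimmed mean was 500.1 on every array, so the deposited scaling was kept. The log2 of each signal, with a floor of 1, was analysed. Of 15866 probe sets that are not controls, the 9520 with a mean at or above the 40th percentile (7.47, a signal of 177) were compared by diet with limma 3.58.1 in R 4.3.3 (lmFit, eBayes with an intensity trend, two-sided, Benjamini-Hochberg adjustment, threshold 0.05). The steps were tested on simulated data. The number of arrays limits the precision.

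The genes named with a value in every array were, by rule, Cd37, the 10 tested members with the widest gap, the 6 with the smallest diet p and the brightest of each role. The members, lists and the pair of arrays were chosen with earlier results of these data known. The roles of Cd244l1 and Cd300c2, the promoter motifs and the gap limits of 1 and 2 were added after the values were seen. Alternatives were quantile normalization, median centring, no filter, a stricter filter (60th percentile), an added signal of 16 before log2, averaging over the probe sets of a gene, no intensity trend, the lymph node signal as a covariate, and leaving out arrays.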

Additional observations from a re-analysis of the deposited data

Results flagged for a closer look

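Within each diet of 5 arrays, the gap between the most extreme array and its neighbour was divided by the whole range and set against Dixon's critical value of 0.71. Over 22 named members and the lymph node signal, 20 of 46 groups passed it. Chance passes about 1 in 20 groups that were not chosen by their values, a rate that does not apply here, since 10 of these members were named for their gap in CAS 6 and SPI 149, arrays known to be low in lymph node signal. In 10 of these CAS 6 was the lowest casein array and in 10 SPI 149 was the lowest soy array. The ratios, first for CAS 6 and then for SPI 149, were 0.867 and 0.763 for Cd3d, 0.822 and 0.831 for Cd79b, 0.846 and 0.801 for Cd3e, 0.850 and 0.737 for Cd3g and 0.982 and 0.890 for Cd8a. They were 0.878 and 0.711 for Cd5, 0.815 and 0.863 for Cd53, 0.798 and 0.738 for Cd247, 0.805 and 0.794 for Cd83 and 0.835 and 0.818 for the lymph node signal. Cd37 and Cd8b, although low in both arrays, did not reach the critical value in either diet.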

How the results depend on the processing

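No probe set passed limma at an adjusted p under 0.05 under any alternative run. The count of 16 members low in both arrays was 14 to 16 under other scalings and probe choices. It was 11 with the stricter filter and 18 with no filter, which change how many members are tested. Leaving out 1 array was an alternative added after seeing the data. Without 1 of the other 8 arrays the count was 15 or 16. Such a removal cannot shrink a gap, so a lower count can come only from the filter. Without CAS 6 it was 17 and without SPI 149 it was 19, but there only the remaining array of the pair had to be low. The median member difference of -0.0029 lay between -0.0244 and 0.0149 under the alternatives that kept all arrays and the lymph node covariate, and between -0.1018 and 0.083 without 1 array. The diet difference of the lymph node signal, 0.076, ran from -0.2623 to 0.424 without 1 array and stood at 0.0857 without CAS 6 and SPI 149 (exact permutation p = 0.46).

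Of 403 values of 22 named members, 352 kept their direction and 51 turned, 41 of them without 1 array, and the adjusted p in limma ran from 0.66 to 1. This tally does not measure robustness, since some alternatives could not turn a value. Another filter or no intensity trend leaves a difference as it was, and so does averaging for genes with 1 probe set. With the lymph node signal as covariate the turned values were -0.0001 for Cd79b, -0.0348 for Cd3e, -0.1582 for Cd3g and -0.0507 for Cd5. Without CAS 6 and SPI 149 they were 0.1299 for Cd8a, 0.0591 for Cd83, -0.0471 for Cd48 and -0.048 for Cd2bp2, and under quantile normalization 0.0032 for Cd83 and 0.0106 for Cd14. The cause was not tested. When each array was left out in turn, differences spanned -0.7911 to 0.1364 for Cd37, -0.7780 to 1.3546 for Cd3d, -0.9173 to 1.2154 for Cd79b, -0.8213 to 1.1162 for Cd3e, -0.8078 to 1.0188 for Cd3g, -0.7209 to 0.6875 for Cd8a and -0.5351 to 0.6571 for Cd5. They spanned -0.5626 to 0.4752 for Cd53, -0.4775 to 0.4021 for Cd247, -0.2472 to 0.2820 for Cd83, -0.0618 to 0.5436 for Cd8b, -0.1031 to 0.1155 for Cd2bp2, -0.0693 to 0.0646 for Cd14 and -0.2456 to 0.0096 for Cd248. Cd8b has no value without CAS 20, SPI 155, SPI 157 or SPI 159, because it lay below the filter there. No paired analysis was possible because no replicate number occurs in both diets. Signals near the bottom of the scale, without detection calls, limit how far gaps can be read.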
